A study of Homo sapiens with 6 samples.

Results

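U373MG cells, an established human glioblastoma line, were exposed for 24 hours to ET-770 (the compound 1a) at 4.83 nM, and their RNA was compared with that of cells kept for the same time with DMSO, the vehicle, at the concentration that came with the compound. The comparison uses 2 of the 6 arrays of the series, namely the array labelled ET-770 and the DMSO array labelled as its own control. The other arrays hold RM (renieramycin M, the compound 2a) at 3.10 nM and ET-770-DR (the compound 3) at 1.70 nM, again for 24 hours and again with a DMSO array for each. Every dose is labelled as the IC50 of its compound, which the study determined over a longer exposure than the 24 hours of the RNA. All 18417 genes that the array reads with a probe of 1 gene symbol entered the comparison, and none was chosen by its values. There was 1 array per arm and 1 cell line, so a difference between ET-770 and DMSO could not be checked by replicates, and its size is described without a p-value. RNA of a whole culture was hybridised, in which fewer cells of a kind and less RNA per cell cannot be told apart.

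ET-770 is an ecteinascidin, a tetrahydroisoquinoline alkaloid from a tunicate, and a stabilised relative of trabectedin. Trabectedin binds in the minor groove of DNA and forms a bond with guanine, and such adducts are met by nucleotide excision repair and by RNA polymerase II as it copies a gene. The polymerase copies introns as well as exons, so that the genomic span of a gene, and not the length of its mRNA, is the stretch of DNA that it has to cross. Glioblastoma is the most aggressive of the glial tumours, and receptor signalling, adhesion and migration are the functions most studied in its cells.

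The signals are log2 values that the authors computed by RMA, and a difference of 1 is a 2-fold change. The median gene read 7.97 with DMSO and 7.92 with ET-770, and over the 18417 genes the 2 arrays correlated at 0.967 (Pearson's r across genes, which are not independent). The median change over all genes was 0.02, with quartiles of -0.16 and 0.24, and 83.1% of the genes lay within 1.5-fold. Of all genes, 9817 lay above 0 and 8583 below it, which is the base for such counts in the lists. The threshold of the study, 3-fold, was kept, and 2-fold is given as a second size. In the ET-770 array, 2.15% of all genes were lower past 3-fold and 0.233% were higher past 3-fold, which is 396 and 43 genes. Past 2-fold, 4.68% were lower and 2.01% were higher. Of the genes past 3-fold, 90.2% were lower, and this share moved with the control array. The DMSO array of the ET-770 experiment lay above the other DMSO arrays by 0.66 (ET-770-DR) and 0.66 (RM) in the median gene. Against the average of the 3 DMSO arrays, the median change moved to 0.45, and 219 genes were lower and 247 higher. In 2 alternatives chosen after seeing the data, after quantile normalization of the 6 arrays, the DMSO array of the ET-770-DR experiment as the control gave 455 lower and 62 higher, and that of the RM experiment gave 660 lower and 410 higher. Of the 396 lowered genes, 338 and 273 were then lower past 3-fold as well, and of the 43 raised genes, 20 and 22 were higher.

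**Figure D1:**
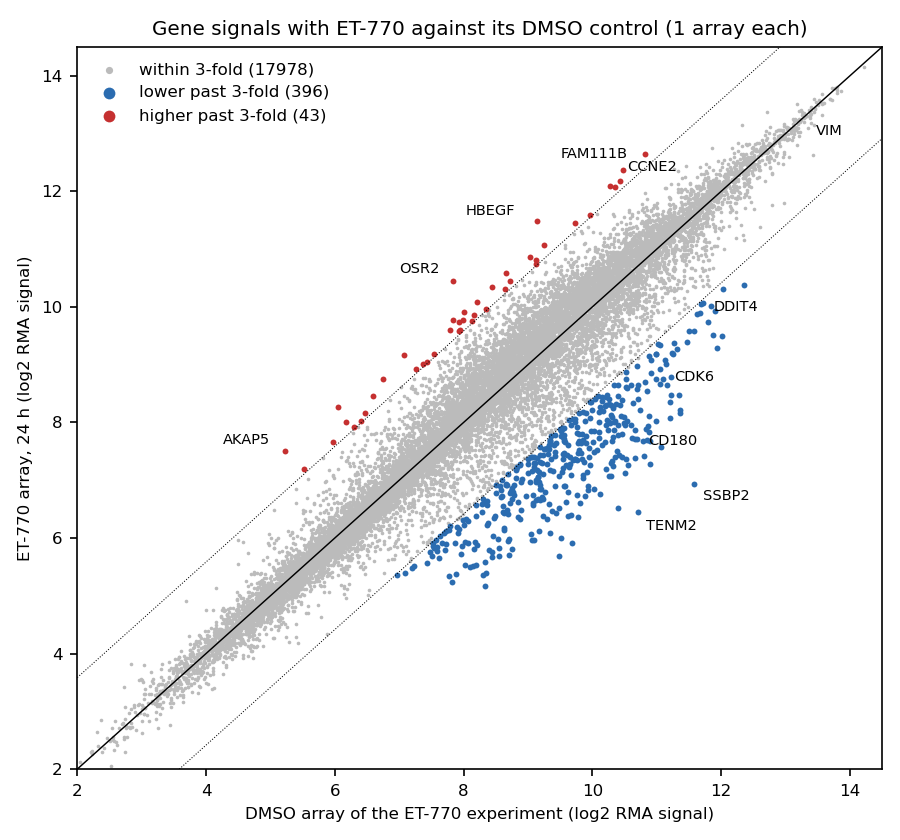
Signal of each of the 18417 genes in the DMSO array (horizontal axis) and in the ET-770 array (vertical axis), both as log2 RMA signal, with the line of equal signal and dotted lines at 3-fold. The 396 lowered genes (blue) spread far below the line and the 43 raised genes (red) stay close to the upper limit, with some genes named.

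The genes with the largest falls were bright in the DMSO array and dim in the ET-770 array. SSBP2, a partner of LIM-domain transcription complexes that binds single-stranded DNA, read 11.58 with DMSO and 6.94 with ET-770, a log2 change of -4.64. TENM2, a teneurin of synaptic adhesion, read 10.71 and 6.46, a change of -4.25. PRKD1, the protein kinase D that diacylglycerol activates, fell from 10.40 to 6.51 (14.8-fold). These 3 genes lost the signal of a well-expressed gene and ended below the median gene. NLGN1, a neuroligin of excitatory synapses, went from 9.49 to 5.68. MLLT3, a reader of acylated histones in the complex that releases paused polymerase, went from 9.69 to 5.91. ELMO1, which works with DOCK proteins to activate Rac, went from 10.90 to 7.29. The next 9 are the membrane traffic genes SBF2 and ERC1, the Eph receptor EPHA3, the RAP GTPase regulator SIPA1L1, the splicing-related RSRC1, the nuclear receptor coactivator NCOA1, the kinase TNIK, the receptor phosphatase PTPRZ1 and the scaffold PDZRN3. They fell by 3.51 (SBF2) to 3.28 (PDZRN3) on the log2 scale. The 15 genes have varied functions, and their spans run from 189 kb (PTPRZ1) to 1285 kb (TENM2).

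**Figure D2:**
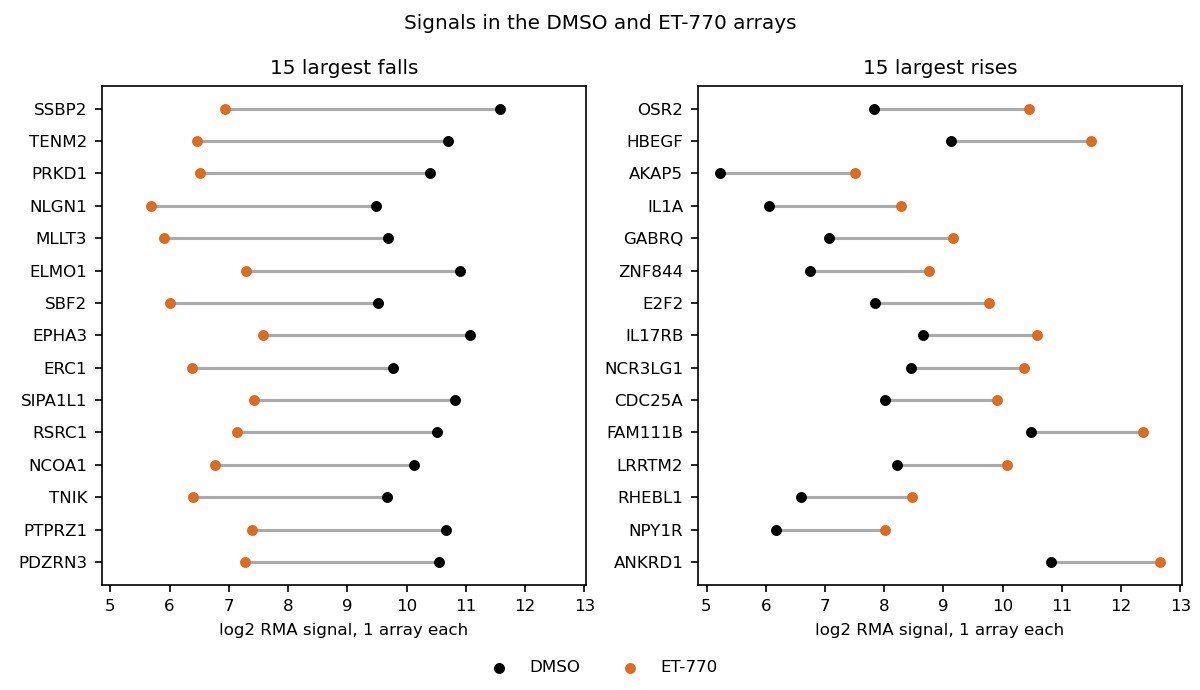
Log2 RMA signal of the 15 genes with the largest falls (left) and the 15 with the largest rises (right) in the DMSO array (black) and in the ET-770 array (orange), 1 array each. The falls, down to a change of -4.64 for SSBP2, are longer than the rises, up to 2.61 for OSR2.

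The lowered genes were long and the raised genes were short. A span in the annotation of GRCh38.p14 was found for 18392 of the genes, of which 17.0% are longer than 100 kb. Of the 395 lowered genes with a span, 384 (97.2%) are longer than 100 kb. All 43 raised genes are shorter than 50 kb, the longest being CLSPN at 49.8 kb, but so are most genes, 12610 of the 18392. With the quantile-normalized DMSO array of RM as the control, 457 of 659 lowered genes (69.3%) were over 100 kb. Of the raised genes, 367 of 410 (89.5%) were then up to 50 kb. With that of ET-770-DR these counts were 421 of 454 (92.7%) and 58 of 62 (93.5%). The median span was 292 kb for the lowered genes, 13.8 kb for the raised genes and 24.5 kb for all genes. The share of genes lower past 3-fold went from 0.0397% of 12610 genes up to 50 kb through 0.225% of 2662 genes of 50 to 100 kb and 3.37% of 1810 genes of 100 to 200 kb to 25.2% of 1018 genes of 200 to 500 kb and 26.4% of 231 genes of 500 to 1000 kb. The median log2 change over the same bins was 0.09, -0.05, -0.35, -0.68 and -0.38. The share did not climb further, since of 61 genes over 1000 kb 8.20% were lower past 3-fold, with a median of -0.14. Short genes moved slightly the other way, and 347 of those up to 50 kb were higher past 2-fold against 2 of the 3120 longer than 100 kb. Across the 18392 genes, Spearman's correlation of span and change was -0.37, given as a description, since genes are not replicates and neighbours share sequence features.

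The relation was steeper among brighter genes. Among genes above the median of their mean signal, the median change was -1.53 for 374 genes of 200 to 500 kb and -2.26 for 47 genes of 500 to 1000 kb, and 49.8% of the 428 genes past 200 kb were lower past 3-fold. Among dimmer genes the same medians were -0.24 (644 genes) and -0.16 (184 genes). Of the 5 longest genes, 4 were dim in both arrays and changed little. RBFOX1, a splicing factor of neurons with a span of 2474 kb, read 5.23 and 5.24, and CNTNAP2, a neurexin relative, read 5.70 and 5.70. DLG2, a scaffold of synapses, read 5.36 and 5.35, and PTPRD, a receptor phosphatase, read 5.84 and 5.54. DMD, which codes for dystrophin, read 7.51 and 6.60, a change of -0.91.

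**Figure D3:**
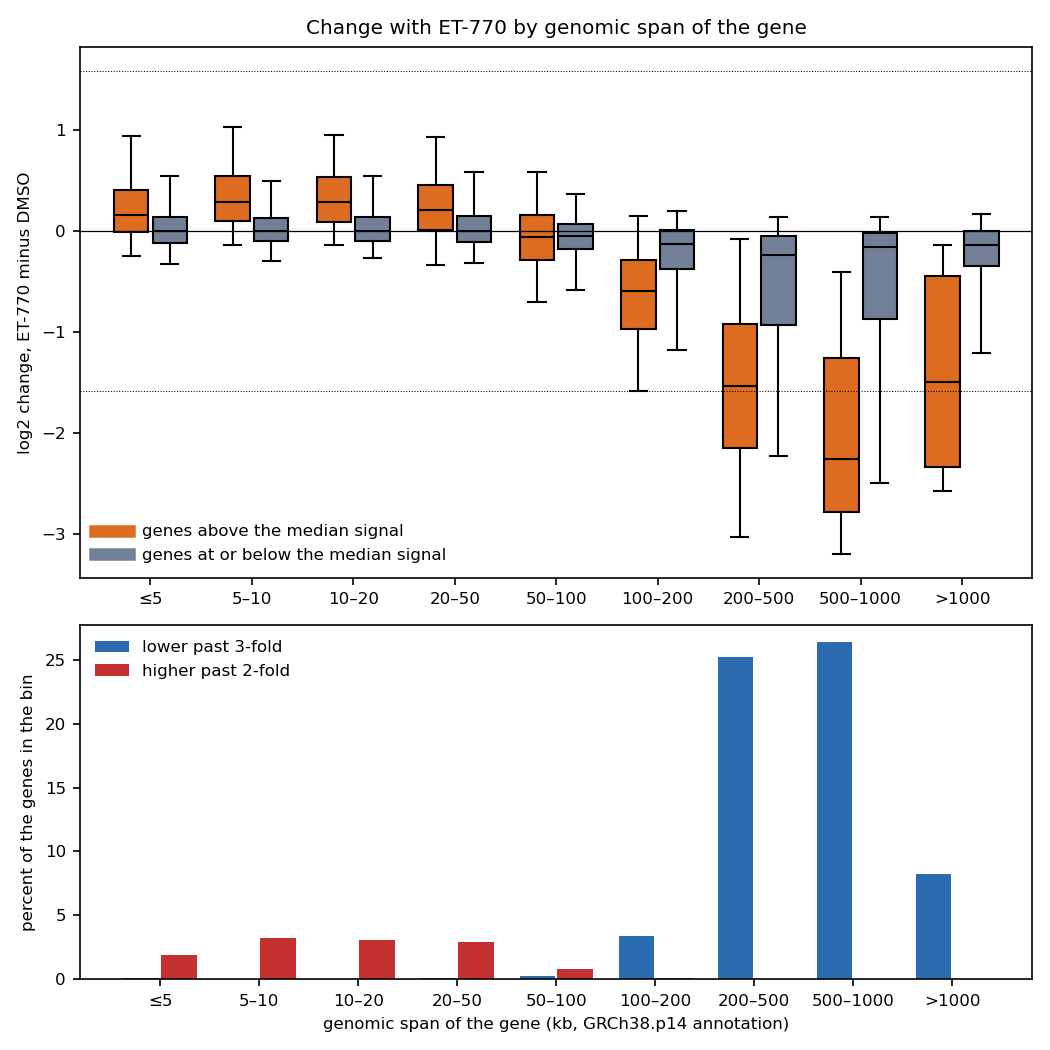
Upper panel: log2 change with ET-770 by genomic span, for genes above the median signal (orange) and at or below it (grey); boxes are quartiles, lines medians and whiskers the 5th and 95th percentiles, with dotted lines at 3-fold. Lower panel: percent of the genes in each span bin lower past 3-fold (blue) or higher past 2-fold (red), with 25.2% lower at 200 to 500 kb.

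Few short genes were lowered, and 5 of the 395 span 50 kb or less. DDIT4, an inhibitor of mTOR with a span of 2.11 kb, read 11.72 with DMSO and 10.07 with ET-770. FOXR2, a forkhead factor of 2.79 kb, read 7.20 and 5.49. CD180, a relative of the toll-like receptors, read 10.70 and 7.71. NDP, which codes for norrin, a ligand of Frizzled receptors, read 11.26 and 9.19, and HAS2, the main hyaluronan synthase, read 10.52 and 8.75. All but FOXR2 were well expressed with DMSO. The level of CD180 with DMSO differed between experiments, with 9.87 in the DMSO array of ET-770-DR and 7.70 in that of RM. In the other direction, FANCB, a subunit of the Fanconi anaemia core complex that spans 184 kb, read 8.18 and 9.42, and GLMN, which blocks cullin ligases and spans 124 kb, read 7.44 and 8.52. These are the only 2 genes over 100 kb that were higher past 2-fold, and GLMN is named for that after its values were seen.

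The largest rises came from short genes of varied function. OSR2, a zinc finger factor of limb and tooth development, read 7.84 with DMSO and 10.44 with ET-770 (6.10-fold). HBEGF, a ligand of the EGF receptor, read 9.14 and 11.49 (5.12-fold). AKAP5, which anchors protein kinase A, read 5.23 and 7.51 (4.89-fold). These 3 had a dim, a moderate and a very dim start, so the rises began at different levels. IL1A, an inflammatory cytokine, read 6.06 and 8.28, and GABRQ, the theta subunit of the GABA receptor, read 7.07 and 9.17. ZNF844, E2F2, IL17RB, NCR3LG1, CDC25A, FAM111B, LRRTM2, RHEBL1, NPY1R and ANKRD1 complete the first 15, with log2 changes from 2.01 (ZNF844) to 1.84 (ANKRD1). FAM111B, a protease linked to DNA replication, was the second brightest of the 15 at 12.36 with ET-770, after ANKRD1, a nuclear ankyrin repeat protein, at 12.66. GDF15, NR4A2, CCNE2, CDC6, BCL2L11, CHAC1 and DDIT3 followed past 3-fold and are described with their lists.

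The other members of each pathway were taken from 70 lists, which together hold 1878 measured genes. The median change of a list lay below the 0.02 of all genes for 39 lists and above it for 31. Inside the lists, 196 genes were lower past 2-fold, of which 186 are longer than 100 kb and 2 are up to 50 kb (DDIT4 and IL6). Another 70 were higher past 2-fold, of which 66 are up to 50 kb and 1 is longer than 100 kb (FANCB). The list genes comprise 528 longer than 100 kb and 1083 up to 50 kb. Over all genes, 25.4% of those longer than 100 kb were lower and 2.75% of those up to 50 kb higher past 2-fold. With the quantile-normalized DMSO array of RM as the control, 23 of the 70 list medians changed sign relative to all genes. The others kept their sign, among them p53 targets (0.41), immediate early genes (0.43) and HECT and cullin ligases (-0.95). List medians are given for the control of the ET-770 experiment, and how far they hold with another control differs between lists. The falls inside the lists were nearly all of long members, and the rises nearly all of short members.

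**Figure D4:**
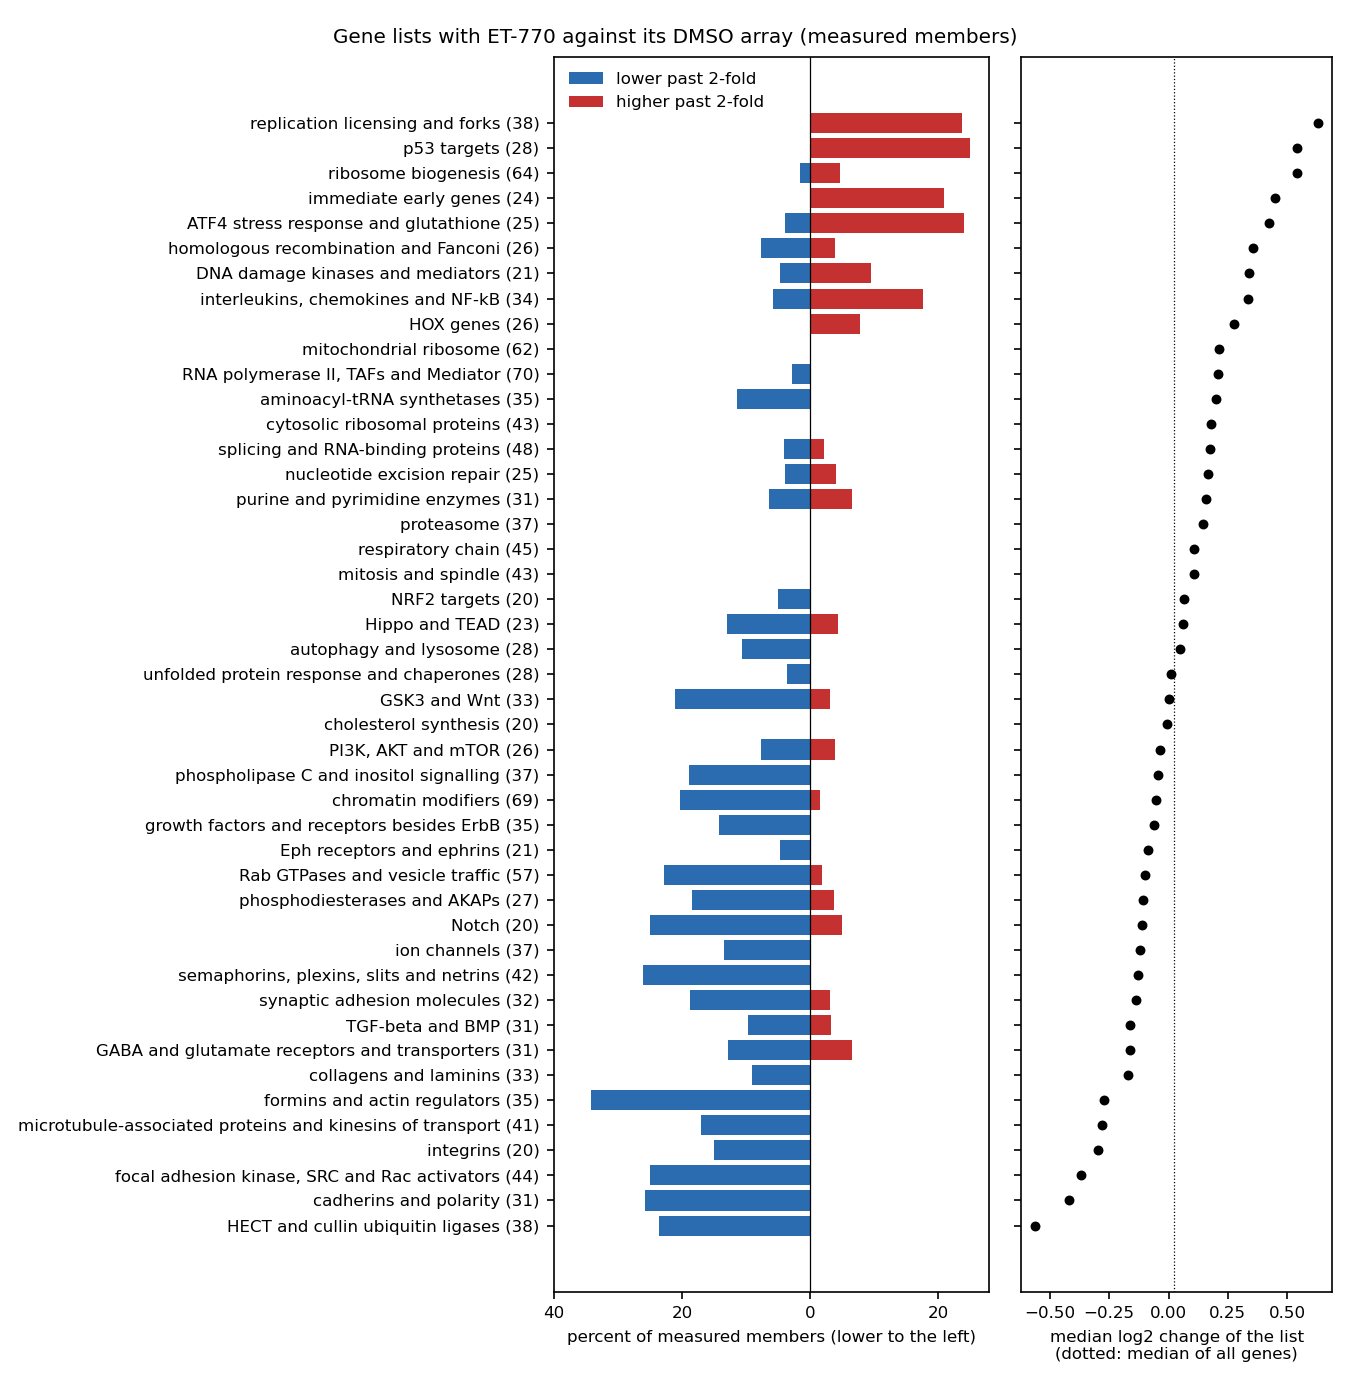
For each list with at least 20 measured members (number in brackets), the percent of members lower (blue, to the left) and higher (red, to the right) past 2-fold with ET-770, and the median log2 change of the list (points; dotted line, median of all genes). Replication licensing and p53 targets stand at the top with medians of 0.63 and 0.54, and ubiquitin ligases at the bottom with -0.56.

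Targets of p53, the factor that DNA damage stabilises, were mostly higher. Of 28 measured targets, 26 had a value above 0, 7 were higher past 2-fold and 0 were lower past 2-fold, and the median was 0.54. GDF15, a secreted stress cytokine, read 10.36 with DMSO and 12.08 with ET-770. SESN2, a sensor of leucine that restrains mTOR, read 8.35 and 9.97, and GADD45A, which acts in arrest and repair, read 9.06 and 10.61. CDKN1A, the p21 inhibitor of cyclin-dependent kinases, read 9.70 and 10.75, a 2.06-fold difference that is short of the threshold. MDM2, the ligase that removes p53, read 11.05 and 11.44. So the median of the targets lay above that of all genes, with 2 of them past 3-fold. Of the 28 targets, 24 span 50 kb or less. All genes of that span had a median of 0.09, and 0.23 among genes above the median signal. How far the rise of the targets goes with their span was not tested.

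Genes that carry out cell death showed 1 large rise. BCL2L11, which codes for the death-promoting BIM, read 7.99 with DMSO and 9.77 with ET-770. The other 11 death-promoting BCL2 relatives were within 2-fold, among them BAK1 (9.22 and 9.86) and PMAIP1 or NOXA (11.53 and 12.04). The survival genes BCL2L1 (11.01 and 11.03), MCL1 (11.21 and 11.69) and BCL2 (7.67 and 7.34) stayed within 2-fold. BIRC6, a giant inhibitor of apoptosis of 262 kb that is also a ubiquitin-conjugating enzyme, read 10.36 and 8.33. NAIP, another member of that family, read 8.51 and 6.92 and lay just past the threshold, with a change of -1.59. Among 15 caspases and apoptosome genes, 13 lay above 0 with a median of 0.36 and none was past 2-fold; the largest value was that of CASP1 (6.81 and 7.76). Relative to all genes this median turned to -0.14 with the DMSO array of the RM experiment as the control after quantile normalization. Of 13 death receptor genes, TNFRSF21 (8.52 and 7.43) alone was past 2-fold.

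DNA repair lists held a few large falls among medians above that of all genes, 2 of which turned with the RM control. XRCC4, the partner of DNA ligase IV in end joining with a span of 297 kb, read 9.62 with DMSO and 6.38 with ET-770 (9.40-fold lower). MNAT1, a subunit of the kinase of the repair and transcription factor TFIIH, read 9.18 and 7.31. FANCC, of the Fanconi core complex, read 8.29 and 6.98. Each of these genes is longer than 200 kb. Of 25 nucleotide excision repair genes, MNAT1 was the 1 lower and RPA2, of the single-strand binding protein RPA (7.97 and 9.25), the 1 higher past 2-fold, with a median of 0.16, which turned to -0.10 relative to all genes with the RM control. XPA, which verifies the lesion, read 8.13 and 8.62. Of 26 genes of homologous recombination and the Fanconi pathway, 20 lay above 0 with a median of 0.36, and BRCA1 read 9.57 and 9.97. Of 21 damage kinases and mediators, CLSPN (8.64 and 10.32), the claspin that relays ATR signals, and RAD9A (9.37 and 10.42) were higher past 2-fold, while ATM, the kinase that breaks activate, read 9.56 and 8.88. The median of that list, 0.34, was turned to -0.45 relative to all genes by the RM control.

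Some genes of the G1 to S transition were raised beside genes of DNA replication. Of 17 G1 cyclins, kinases and inhibitors, 4 were higher and 1 lower past 2-fold with a median of 0.25, and of 13 E2F and RB genes 3 were higher and 1 lower with a median of 0.22. CDC25A, the phosphatase that activates CDK2, read 8.01 with DMSO and 9.91 with ET-770. CCNE2, a cyclin E, read 10.44 and 12.17, and E2F2, an activating E2F factor, read 7.84 and 9.77. CDC6, which loads the replicative helicase at origins, read 10.27 and 12.09. All 4 are short genes of 16.5 kb (CCNE2) to 31.3 kb (CDC25A) and were higher past 3-fold. CDK6, the kinase partner of D cyclins, spans 232 kb and read 11.15 and 9.01, while CCND1, its cyclin, read 9.99 and 10.31. The repressor-type factors E2F8 (9.72 and 11.26) and E2F7 (10.32 and 11.62) were higher past 2-fold. Of 38 genes of origin licensing and replication forks, 35 lay above 0, 9 were higher past 2-fold and 0 lower, and the median was 0.63, the highest of the lists. Among them CDT1, the licensing factor, read 8.40 and 9.95, and ORC6, of the origin recognition complex, read 9.28 and 10.60. Of 43 genes of mitosis and the spindle none was past 2-fold, the largest value being that of ESPL1, the separase (9.53 and 10.45), and the median was 0.11.

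E2F factors switch on genes of S phase through a short promoter motif, so the promoters of the raised genes were searched for it. The windows are those of RefSeq on GRCh38.p14, 250 bases before to 50 after each gene's start, and 14239 of the genes have one. The motif was spelled TTTGGCGC, TTTGCCGC, TTTCGCGC or TTTCCCGC and was sought on both strands. It was present in 4.52% of all windows, in 16 of 35 (45.7%) of the replication list, in 5 of 11 (45.5%) of the E2F and RB family and in 2 of 37 (5.41%) of the mitosis list. Among the genes lower past 3-fold it was in 18 of 335 (5.37%). Among those higher it was in 4 of 33 (12.1%) past 3-fold and 27 of 273 (9.89%) past 2-fold. Of the motifs searched, CCAAT was the commonest in the raised genes and in all windows alike. It was present in 20 of 33 (60.6%) of the genes higher past 3-fold and 122 of 273 (44.7%) of those past 2-fold. All windows held it in 36.3% and the genes lower past 3-fold in 34.3%. The mitosis list, in which no gene was past 2-fold, held it in 28 of 37 (75.7%). CRE (TGACGTCA) was present in 1 of 33 (3.03%) past 3-fold and 15 of 273 (5.49%) past 2-fold, against 2.65% of all. AP-1 (TGAGTCA) was present in 2 of 33 (6.06%) and 9 of 273 (3.30%), against 3.55%. The 4 raised genes with the E2F motif are shown because they hold both the rise and the motif, with the match in capitals, each 5′ to 3′ along its gene. CDC25A lies at chr3:48188418-48188497, E2F2 at chr1:23531234-23531311 and CLSPN at chr1:35769965-35769994, all on the minus strand, and CDC6 at chr17:40287875-40287904 on the plus strand.
CDC25A: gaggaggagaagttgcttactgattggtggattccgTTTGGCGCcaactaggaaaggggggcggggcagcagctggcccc
E2F2: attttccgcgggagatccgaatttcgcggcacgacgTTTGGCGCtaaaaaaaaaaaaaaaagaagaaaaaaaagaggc
CLSPN: actctggctggGCGGGAAAgcaagaacagc
CDC6: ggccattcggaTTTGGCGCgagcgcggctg
The spelling TTTGGCGC is common to CDC25A, E2F2 and CDC6, and CLSPN holds the reverse complement of TTTCCCGC. The match begins at -44 in CDC25A, -42 in E2F2, -5 in CLSPN and 8 in CDC6, counted from the gene's start. A match of letters is a description of the sequence and no measurement of binding.

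Early response and stress genes made up a further part of the rises. Of 24 immediate early genes, which are induced first after a stimulus, 20 lay above 0, 5 were higher past 2-fold and 0 lower, with a median of 0.45. NR4A2, an orphan nuclear receptor, read 7.79 with DMSO and 9.61 with ET-770, and MYC, the growth factor-induced transcription factor, read 8.91 and 10.47. ATF3, a factor of the stress response, read 7.20 and 8.63. DUSP8, a phosphatase of stress-activated kinases, read 8.63 and 10.21, the 1 of 15 feedback inhibitors past 2-fold. Of 25 genes of the ATF4 response and glutathione turnover, 6 were higher and 1 lower past 2-fold, with a median of 0.42. CHAC1, which degrades glutathione, read 9.12 and 10.81, and DDIT3, the factor CHOP, read 9.96 and 11.59. DDIT4, often grouped with them, went the other way, as given with the short genes.

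The ATF4 half-site with its C/EBP neighbour was spelled TGATGCAA and was present in 0.730% of all promoter windows. Of the genes higher past 2-fold 1 of 273 (0.366%) held it, and of those higher past 3-fold 1 of 33 (3.03%). In the ATF4 list it was present in 1 of 19 (5.26%), and among genes lower past 3-fold in 3 of 335 (0.896%). With 1 match among the raised genes, these shares cannot tell whether the motif is more or less common there. CHAC1 was the 1 raised gene that holds it, and its stretch at chr15:40953226-40953305 on the plus strand is shown for that reason, with the match, the reverse complement TTGCATCA, in capitals at -209 from the start.
CHAC1: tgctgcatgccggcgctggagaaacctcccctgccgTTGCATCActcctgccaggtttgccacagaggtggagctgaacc

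Inflammatory signals were raised in part. IL17RB, a receptor of the cytokine IL-25, read 8.66 with DMSO and 10.58 with ET-770. CXCL2, a chemokine that attracts neutrophils, read 7.44 and 9.04, at 3.04-fold close to the threshold. NFKB2, CXCL8 and IL1B, which the rule for names did not choose, were higher past 2-fold as well, with log2 changes of 1.44, 1.36 and 1.16. IL1RAP, the coreceptor of interleukin 1 that spans 146 kb, read 9.52 and 7.90, and IL6, also outside the rule, changed by -1.21 from 10.22. Of the 34 genes of this list, 6 were higher and 2 lower past 2-fold, with a median of 0.33. The NF-kB motif, sought in 4 common spellings on both strands, was present in 0.702% of all windows and in 10 of 28 (35.7%) of this list. It was present in 4 of 273 (1.47%) of the genes higher past 2-fold and 2 of 33 (6.06%) of those higher past 3-fold. Of the genes lower past 3-fold, 2 of 335 (0.597%) held it. The 4 raised holders were CXCL2, CLSPN, ZNF670 and ZNF641, so most members of this list that hold the motif were not raised past 2-fold. CXCL2 is shown as the member of the list past 3-fold that holds it, at chr4:74099228-74099309 on the minus strand, with the match in capitals at -78 from the start.
CXCL2: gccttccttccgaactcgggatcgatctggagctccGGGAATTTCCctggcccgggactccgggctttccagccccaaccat
Of 18 ligands of natural killer cells and immune checkpoints, 3 were higher past 2-fold (16.7%, against 2.01% of all genes). NCR3LG1, the ligand B7-H6 of an activating natural killer receptor, read 8.45 and 10.35. CD274, the checkpoint ligand PD-L1, read 8.73 and 10.01, and LGALS9, a galectin, read 6.64 and 7.81. Interferon response genes had a median of 0.03, and IRF1 (8.61 and 9.86) and IFIT2 (9.60 and 10.63) were the 2 of 19 higher past 2-fold. This list moved most with the control array: relative to all genes its median was 0.01 here, 1.23 against the average of the DMSO arrays, 0.68 with the ET-770-DR control and 2.53 with the RM control.

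In growth factor signalling some long receptors and relays were lowered, while the short ligand HBEGF was raised. EGFR, the EGF receptor, which spans 193 kb, read 10.44 with DMSO and 9.22 with ET-770, a 2.33-fold fall short of the threshold. TGFA, another of its ligands, read 10.82 and 8.69, and LRIG1, an inhibitor of ErbB receptors, read 9.91 and 8.16. Of 16 ErbB genes, 9 are longer than 100 kb, and the 4 lower past 2-fold are all among them. With 1 higher past 2-fold, the list had a median of -0.13. Relative to all genes this median was -0.15, but -1.03 among genes above the median signal. It was -0.46 with the ET-770-DR control and -0.30 with the RM control. In the RAS to ERK relay, GAB2, a docking protein, read 8.67 and 6.92 and was the 1 of 19 past 3-fold. Past 2-fold 3 of the 19 were lower and 0 higher, all 3 among the 10 longer than 100 kb. In the PI3K and mTOR list, RPTOR, which codes for raptor, read 9.60 and 7.44, and PIK3CB, a catalytic subunit of PI3K, read 9.35 and 7.68. They were the 2 lower past 2-fold, among 12 members longer than 100 kb, while 23 of the 26 genes stayed within 2-fold. Of all genes over 100 kb, 25.4% were lower past 2-fold. RHEBL1, a relative of the mTOR activator RHEB with a span of 5.30 kb, read 6.60 and 8.47. PDGFD, a ligand of PDGF receptors, read 8.58 and 6.83, and IGF1R read 9.69 and 8.30.

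Second messenger genes held some of the deepest falls. PLCB1, a phospholipase C of 753 kb, read 10.53 with DMSO and 7.36 with ET-770. PLCE1, a phospholipase C that RAS activates, read 10.66 and 7.71. ITPR1 and ITPR2, receptors that release calcium from stores, read 9.48 and 6.52, and 8.20 and 5.54. INPP5A, which ends the inositol trisphosphate signal, read 10.35 and 7.41. Lowered genes thus included enzymes that form the messenger, receptors and a phosphatase, while 30 of the 37 genes of the list stayed within 2-fold. PIP4K2A (10.14 and 8.44) was the sixth of this list past 3-fold. Of 37 such genes 7 were lower and 0 higher past 2-fold, while the median was -0.05. All 7 are among the 20 members longer than 100 kb. Of all genes of that length, 25.4% were lower past 2-fold. PRKCA, the alpha form of protein kinase C, read 10.27 and 7.07, and PRKCH read 10.30 and 8.10. Of the cyclic nucleotide genes, PDE1C, a phosphodiesterase, read 10.28 and 7.99, AKAP13 read 9.16 and 7.06, and AKAP6 read 8.77 and 6.80, against the rise of the short AKAP5.

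Each of the developmental pathways had several long members lowered. GSK3B, a kinase that marks beta-catenin for destruction, read 9.55 with DMSO and 7.37 with ET-770. BTRC, the ubiquitin ligase subunit that reads this mark, read 9.34 and 7.17, and TCF7L2, a partner of beta-catenin on DNA, read 10.22 and 8.44. Of 33 Wnt genes 7 were lower and 1 higher past 2-fold, so most of the pathway stayed within 2-fold. STK3, a Hippo kinase, read 9.08 and 6.58, TEAD1, the factor at the end of that pathway, read 11.05 and 9.34, and WWC2, an upstream regulator, read 8.83 and 7.24. BMPR2 (10.46 and 8.39) and BMPR1B (8.03 and 5.92), receptors of bone morphogenetic proteins, were past 3-fold. The Hippo and bone morphogenetic protein lists had no other member past 3-fold. For Notch, the coactivators MAML2 (11.10 and 8.75) and MAML3 (8.19 and 6.57) and the inhibitor NUMB (9.34 and 7.70) were past 3-fold, and 5 of 20 genes were lower past 2-fold. All 16 receptor tyrosine phosphatases lay below 0, with a median of -0.38, and PTPRK (9.76 and 6.75), PTPRG (8.72 and 6.78) and PTPRB (10.22 and 8.30) were past 3-fold beside PTPRZ1. Of the 16, 13 are longer than 100 kb, with a median of -0.44 and 4 lower past 2-fold. All genes over 100 kb had a median of -0.40, with 83.9% below 0 and 25.4% lower past 2-fold. The median of this list turned to 0.05 relative to all genes with the RM control.

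Most adhesion and guidance lists had a larger share lowered than all genes, with the falls among their long members. Of 42 semaphorins, plexins, slits and netrin receptors, 11 were lower past 2-fold (26.2%, against 4.68% of all genes), 7 past 3-fold and 0 higher. All 11 are among the 26 members longer than 100 kb. Of all genes over 100 kb, 25.4% were lower past 2-fold. SLIT2, a repellent cue, read 10.86 with DMSO and 7.95 with ET-770, and ROBO1, its receptor, read 10.33 and 7.75. SRGAP2 (10.30 and 7.31) and SRGAP1 (9.16 and 6.68), which act behind ROBO receptors, were lowered with them. SEMA3A, a semaphorin, read 11.87 and 9.52, and UNC5C, a netrin receptor, read 9.23 and 6.39. A ligand, its receptor and relays behind it were thus lowered, each longer than 100 kb, and whether they fell as a pathway was not tested. EPHA3 (11.06 and 7.57) alone of 21 Eph receptors and ephrins was past 2-fold, a share of 4.76% that is near that of all genes. Of synaptic adhesion genes, CASK, a scaffold kinase of neurexins, read 10.02 and 6.85, and NLGN4X read 10.79 and 7.68, while the short LRRTM2 read 8.21 and 10.08. CTNND2, delta-catenin, read 10.10 and 7.73, PARD3, of the polarity complex, read 8.61 and 6.46, and CDH11, a mesenchymal cadherin, read 11.31 and 9.28. Of 31 cadherin and polarity genes 25 lay below 0, and the median was -0.42. The 23 members over 100 kb had a median of -0.89, against -0.40 for all genes of that length.

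From adhesion sites to the cytoskeleton the falls continued. PTK2, focal adhesion kinase, read 10.63 with DMSO and 8.33 with ET-770, and FYN, a SRC family kinase, read 10.46 and 7.79. DOCK1, the exchange factor that ELMO1 pairs with, read 9.91 and 7.15, and DOCK9, which acts on CDC42, read 9.29 and 6.32. Of 44 genes of this list 9 were lower past 3-fold and 11 past 2-fold, all longer than 100 kb, and the median was -0.37. The other 33 stayed within 2-fold. The list holds 25 genes over 100 kb, and of all genes of that length 12.3% were lower past 3-fold and 25.4% past 2-fold. Formins build unbranched actin filaments. DIAPH2, a formin of 920 kb, read 8.31 and 5.36, DIAPH3 read 9.24 and 6.67, FMNL2 read 10.85 and 8.55, and DAAM1 read 7.96 and 5.72. With 12 of 35 genes lower past 2-fold (34.3%), the formin and actin list had the highest share of any list with at least 20 members. All 12 are among its 20 genes over 100 kb. ITGA2, the collagen-binding integrin, read 10.98 and 9.19 and was the 1 of 20 integrins past 3-fold. None of 33 collagens and laminins was past 3-fold, although 28 lay below 0.

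Membrane traffic, ubiquitin and chromatin genes followed the same division. Of 57 Rab and vesicle genes 10 were lower past 3-fold, against 2.15% of all genes and 12.3% of those over 100 kb. The list holds 24 genes over 100 kb, and all 13 members lower past 2-fold are among them. Lower past 3-fold were 4 subunits of the exocyst, the complex that tethers vesicles to the plasma membrane. EXOC6B read 9.88 with DMSO and 6.72 with ET-770, EXOC4 read 10.25 and 7.87, EXOC2 read 10.29 and 8.31, and EXOC6 read 9.09 and 7.29. VPS13B, a lipid transfer protein of the Golgi, read 9.10 and 5.97. Of 38 HECT and cullin ubiquitin ligases 35 lay below 0, and 31 of the 38 are longer than 100 kb. The median of -0.56 was the lowest of the lists with at least 20 members. The 31 long ligases had a median of -0.57, and 9 of them were lower past 2-fold. All genes over 100 kb had a median of -0.40, with 83.9% below 0 and 25.4% lower past 2-fold. HERC3 (10.51 and 7.96), UBR3 (10.53 and 8.62) and HERC1 (8.91 and 7.02) were past 3-fold. Of 69 chromatin modifiers 14 were lower past 2-fold (20.3%), all among the 34 longer than 100 kb. Of all genes of that length, 25.4% were lower past 2-fold. KMT2C, a methyltransferase of enhancers, read 11.20 and 8.07, KDM4C, a histone demethylase, read 9.17 and 6.12, and KAT6B, an acetyltransferase, read 9.53 and 7.14. Of 70 genes of RNA polymerase II, its general factors and Mediator, MED13L (10.83 and 7.88) alone was past 3-fold, and POLR2A, the largest subunit of the polymerase, read 11.45 and 12.45, just under 2-fold higher.

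Protein synthesis and energy genes, most of them short, moved little. None of 43 cytosolic ribosomal protein genes, 62 mitochondrial ribosomal genes, 45 respiratory chain genes or 37 proteasome genes was past 2-fold, with medians of 0.18, 0.21, 0.11 and 0.14. Relative to all genes, the RM control turned the medians of the cytosolic ribosomal (-0.15), respiratory chain (-0.062) and proteasome (-0.16) lists. Ribosome biogenesis genes lay higher, with 61 of 64 above 0 and a median of 0.54, which turned to -0.37 relative to all genes with the RM control. POLR1C, a subunit shared by RNA polymerases I and III, read 8.24 with DMSO and 9.68 with ET-770, and DDX10, a helicase of 276 kb, read 8.67 and 7.28. Of 35 aminoacyl-tRNA synthetases, those past 3-fold were both mitochondrial, FARS2 of 522 kb (9.33 and 6.58) and WARS2 of 109 kb (9.43 and 7.65). Hypoxia targets had a median of -0.68 with 17 of 19 below 0, and CA12 (10.44 and 9.24), NDRG1 (12.34 and 11.24) and PDK1 (11.56 and 10.50) were past 2-fold. HK2, the hexokinase that hypoxia and growth signals raise, read 10.26 and 8.32, and SLC2A1, the glucose transporter GLUT1, read 13.42 and 12.63. The hypoxia list is not one of long genes, its median span being 33.5 kb. Relative to all genes its median was -0.70, but -0.063 with the RM control and -0.97 with the ET-770-DR control. DPYD, which degrades pyrimidines and spans 843 kb, read 10.62 and 7.72, and PNP, a purine phosphorylase of 7.68 kb, read 9.74 and 11.45. The housekeeping genes GAPDH (14.21 and 14.15) and ACTB (13.70 and 13.60) were at the top of the range in both arrays.

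The markers of the glial lineage were present in part. VIM, vimentin, read 13.37 with DMSO and 13.26 with ET-770, and SOX2, a neural stem cell factor, read 12.43 and 11.91. FABP7 (11.16 and 10.34), SOX9 (11.35 and 10.44), GLUL (11.30 and 11.08), S100B (10.13 and 9.40), GJA1 (9.86 and 9.63), SLC1A3 (9.77 and 9.26) and NES (9.18 and 9.25) were above the median gene. GFAP, the intermediate filament that defines astrocytes, read 7.72 and 7.63, below the median gene, and AQP4 (4.88 and 4.79), SLC1A2 (5.18 and 4.97) and ALDH1L1 (6.67 and 6.65) were dim in both arrays. NFIB (10.26 and 8.81) and NFIA (7.53 and 6.32), glial transcription factors with spans of 450 kb and 386 kb, were the 2 of 15 markers lower past 2-fold. Of 15 glial markers 14 lay below 0 with a median of -0.23. MSI2, an RNA-binding protein of neural stem cells, read 10.72 and 8.40. It was the 1 of 12 neural stem cell factors past 2-fold. The other 11 stayed within it, 4 of the 12 lay above 0, and the median was -0.05. Of 14 mesenchymal glioma markers 13 were above the median gene with DMSO and 0 were past 2-fold, with a median of -0.13. Of the markers of other cells, 9 of 11 microglial, 7 of 12 neuronal, 6 of 11 oligodendrocyte, 5 of 11 endothelial and 2 of 9 fibroblast markers read below 7 in both arrays, and none of these lists had a member past 3-fold. The median change was 0.03 for the microglial, -0.16 for the neuronal, -0.14 for the oligodendrocyte, -0.06 for the endothelial and mural and -0.16 for the fibroblast list. The brightest were CNP (12.28 and 12.49), THY1 (11.93 and 12.09), COL1A2 (10.84 and 10.14), CD68 (10.71 and 11.23) and PDGFRA (10.14 and 9.62). The part of such markers in the changes was not tested.

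Further groups were set apart after the values were seen. Genes named ZNF followed by a number, which code for zinc finger proteins, were higher on chromosome 19, where they stand in clusters. Of 237 such genes on that chromosome 216 lay above 0, 49 (20.7%) were higher past 2-fold and 0 lower, with a median of 0.57. Of 257 on other chromosomes 13 were higher and 7 lower past 2-fold, with a median of 0.24. Relative to all genes, the median of the first group stayed above 0 under every alternative, from 0.27 with the RM control to 0.59 among genes above the median signal, and with the RM control 10 of its genes were lower past 2-fold. The 2 groups have the same median span, 23.4 kb. The 1072 other genes of chromosome 19 had a median of 0.06, and 1.59% of them were higher past 2-fold, which is below the 2.01% of all genes. As examples chosen after their values were seen, ZNF433 read 6.48 with DMSO and 8.16 with ET-770, and ZNF442 read 7.37 and 9.01. The probes of such related genes may share sequence, and how far they read each other was not tested. Small nucleolar RNAs guide the modification of ribosomal RNA, and most are cut from introns of host genes. Of 175 on the array 135 lay above 0, 25 (14.3%) were higher past 2-fold and 0 lower, with a median of 0.34. Relative to all genes this median ran from 0.18 (RM control, with 8 genes lower past 2-fold) to 0.40 (genes above the median signal). All 7 of the GAS5 host gene that were measured here were among the 25, from SNORD81 (8.38 and 9.43) to SNORD75 (7.93 and 9.58). They sit in introns of 1 transcript and are not separate observations. The 173 microRNA genes had a median of -0.00021 and none past 2-fold. The 634 long noncoding RNAs had a median of -0.00066, with 9 higher and 1 lower past 2-fold. Of 56 replication-dependent histone genes 47 lay below 0, with a median of -0.17 and none past 2-fold.

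The values of ET-770-DR and RM against their own DMSO arrays stand beside those of ET-770 at other doses. ET-770-DR carries a pyridinecarbonyl group that ET-770 lacks, and RM is a related quinone alkaloid from a sponge. The 396 genes lowered with ET-770 had a median change of -2.13, against -1.96 for ET-770-DR and -1.59 for RM. None of them lay above 0 for ET-770-DR and 1 did for RM (GPR158). The 43 raised genes had medians of 1.73, 1.78 and 0.92 in the same order, and 2 of them (ANKRD1 and SNORD1A) lay below 0 for RM. Because these genes were chosen by their change with ET-770, larger values for ET-770 are built into the choice. Over all genes, the median of genes over 100 kb minus that of genes up to 50 kb was -0.50 for ET-770, -0.46 for ET-770-DR and -0.60 for RM. PTPRZ1 changed by -3.28, -4.53 and -2.66 in this order. IL1A changed by 2.22, 1.87 and 0.40. ANKRD1 changed by 1.84, 1.25 and -0.73, which is the 1 case of an opposite sign among the 30 genes of largest change. Its DMSO arrays read 10.82, 11.09 and 12.40, so its level without compound differed between the experiments too. MYC, at 1.56, 1.27 and -0.11, and CXCL8, at 1.36, 1.72 and -0.10, lay near 0 for RM. CXCL8, GPR158 and SNORD1A were singled out after their values were seen.

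**Figure D5:**
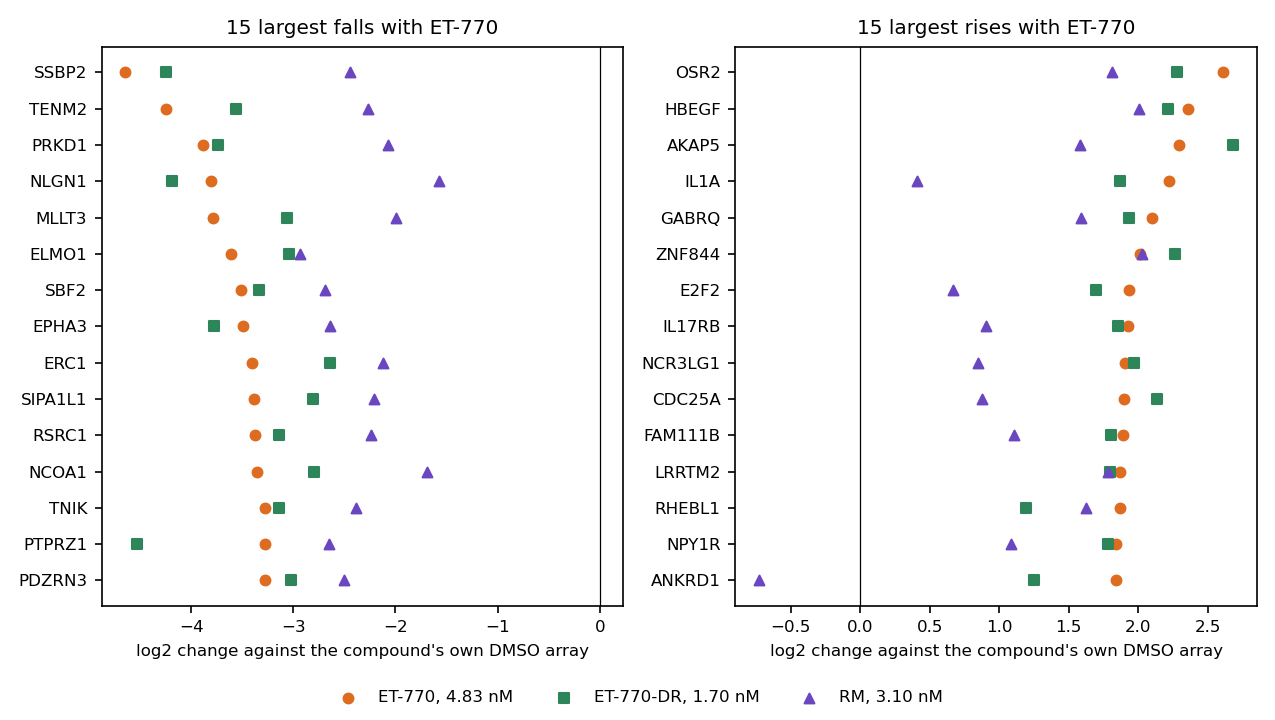
Log2 change against the compound's own DMSO array for the 15 largest falls (left) and 15 largest rises (right) with ET-770 (circles, 4.83 nM), ET-770-DR (squares, 1.70 nM) and RM (triangles, 3.10 nM), 1 pair of arrays each. The triangles mostly lie nearer to 0 than the circles, and ANKRD1 lies below 0 for RM at -0.73.

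Whether ET-770 differs from the other compounds was tested with limma on the 3 within-experiment differences, with the change of ET-770 set against the mean of the others. The spread behind this test comes from the difference between ET-770-DR and RM, which are different compounds at different doses, pooled across genes, so that its p-values and intervals take that difference for error. Of 18417 genes 0 passed an adjusted p of 0.05 (0% called), 155 had an unadjusted p under 0.05, and the smallest adjusted p was 0.168. This gene was DNM3, a dynamin of synapses, with -2.75 for ET-770 and -1.10 and -0.81 for ET-770-DR and RM, a difference of -1.79 ± 0.79 (95% interval, not adjusted for the number of genes). FREM2, a protein of the basement membrane, followed in the same direction with -3.16, -1.84 and -1.24 (adjusted p = 0.366 by limma). SSBP2, with -4.64, -4.24 and -2.44, had a difference of -1.30 ± 0.79 and an adjusted p of 1 by limma. DNM3 and FREM2 are named for their rank in this test. With a variance trend, limma called 1 gene, ANKRD1 (adjusted p = 5.65e-06). A compound and its experiment cannot be told apart in this design, and the doses differ.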

How the data were processed

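Total RNA of U373MG cells was hybridised to Human Gene 1.0 ST arrays, 1 array per arm. The authors normalized the scans by RMA in Affymetrix Expression Console and deposited log2 values, 1 per probe set, whose scale is background-corrected and summarised, so that dim genes lie near a floor and large changes are compressed. The number of arrays, not depth, limits the precision. Whether the 3 experiments were normalized together was not given in the sources used here.

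Of 33297 probes, the 19460 with exactly 1 gene symbol were averaged into 18417 genes. Probes with several symbols (1754) or none (12083) entered no gene. The change is the ET-770 array minus its own DMSO array, and genes past 3-fold are described, with 2-fold as a second size. Spans and promoters are those of RefSeq (GRCh38.p14), and promoters were searched for the E2F, NF-kB, ATF4, CRE, CCAAT and AP-1 motifs. The compounds were compared by limma 3.58.1 (R 4.3.3) on 3 within-experiment differences with 1 residual degree of freedom and Benjamini-Hochberg adjustment. Other steps used Python 3.11.15, numpy 2.4.6, pandas 2.3.3 and scipy 1.17.1, and the scripts were tested on simulated data.

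Named genes are the 15 largest falls and rises, in each list the members past 3-fold and the 3 with the largest change, the largest differences between compounds called by the reported limma fit (which called none), the glial markers, a short list of genes of interest, the 5 longest genes and the 5 shortest lowered genes. Members and lists were chosen with earlier results of these data known. Zinc finger, small nucleolar RNA, microRNA, long noncoding RNA and histone groups were added after the values were seen. Alternatives were other control arrays, quantile normalization, centring, the brightest probe per gene, genes above the median signal and a 2-fold threshold, and for limma also a variance trend and a model of 6 arrays.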

Additional observations from a re-analysis of the deposited data

Results flagged for a closer look

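Probes that the gene-level comparison left out also changed between the ET-770 array and its DMSO array. Of the 12083 probes with no gene symbol, 99 (0.819%) were higher and 40 (0.331%) lower past 3-fold, with a median change of 0.08. Of the 1754 probes with several symbols, 6 were higher and 7 lower past 3-fold, with a median change of 0.03. They were noticed as signal in data outside the comparison, and no gene was assigned to them.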

How the results depend on the processing

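Past 3-fold, 396 genes were lower and 43 higher; against the average of the 3 DMSO arrays these were 219 and 247 (216 and 37 of the original genes among them), and with the quantile-normalized DMSO array of RM, an alternative chosen after seeing the data, 660 and 410. With the 2-fold threshold they were 862 and 370. Under the other alternatives they lay between 269 and 455 and between 33 and 62. Of 148 named genes past 3-fold, 50 were no longer past it against the average, and none of the 148 changed direction. Of all 288 named genes, 2 changed sign when centred, 3 with either quantile normalization, 23 against the average, 17 with the ET-770-DR control and 34 with the RM control. The log2 change with ET-770 by genomic span of the gene, taken as the median over 100 kb minus that up to 50 kb, was -0.50 and, among genes above the median signal, -0.998. Of the 70 list medians relative to all genes, 23 changed sign with the RM control, 11 against the average, 9 with the ET-770-DR control, 9 among genes above the median signal and 2 after quantile normalization. The lists among them whose median lay outside the quartiles of all genes were, with the RM control, caspases (-0.14), damage kinases (-0.45), receptor phosphatases (0.055) and ribosome biogenesis (-0.37), with the ET-770-DR control, neuronal markers (0.041), and among genes above the median signal, apoptosis inhibitors (0.12) and fibroblast markers (0.041). The limma comparison of the compounds called 0 genes and, with a variance trend, 1 (ANKRD1, adjusted p = 5.65e-06 by limma); every other alternative called 0, with 88 to 736 genes at an unadjusted p under 0.05. The cause of these changes was not tested. The differences were taken within each experiment. No paired analysis was possible by replicate number, because the labels carry none, and no array could be left out of an arm of 1. Genes near the floor of the array can show little loss.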
